A study of Mus musculus with 6 samples.

Results

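The EGF receptor family and its ligands were followed through the cell classes of mouse dorsal skin, with 10 genes as members: the receptors Egfr, Erbb2 and Erbb3, the EGF-type ligands Tgfa, Areg, Epgn, Hbegf, Btc and Ereg, and the neuregulin Nrg1. They were taken by gene symbol from the 31053 genes listed in the files, and all 10 symbols were found. Members were matched by name alone, and the list itself was drawn up with earlier results of these data known. Single-cell transcriptomes had been made by 3′ UMI counting, in which each captured molecule carries a tag that is counted once, from 6 libraries in 3 groups of 2. All animals were female C57BL/6J mice aged 8 to 10 weeks without a genetic modification. Sham mice had no treatment, and cream with 5% imiquimod (62.5 mg daily, 4 days) was put on the shaved back in IMQ. IMQ+SHP099 mice had the cream and SHP099, which locks the phosphatase SHP2 in its inactive form, at 10 mg/kg daily by gavage for 4 days. Whether the days of cream and of SHP099 overlapped is not clear from the labels. Skin was taken 1 day after the last treatment. Imiquimod activates Toll-like receptors and gives skin a psoriasis-like inflammation. Each library pooled the skin of more than 1 mouse, so mice cannot be told apart and p-values measure the spread between pools.

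EGF receptors are membrane kinases that pair up when a ligand binds. EGFR binds the EGF-type ligands, ERBB3 binds neuregulins and has little kinase activity of its own, and ERBB2 has no known soluble ligand and serves as the partner of the others. The ligands are made as membrane precursors, are cut loose mainly by ADAM17, and act on the cell that made them or on its neighbours. In epidermis the pathway drives keratinocyte growth and wound closure, and SHP2, the target of SHP099, relays signals from these receptors to RAS and ERK.

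Epgn, Ereg, Areg and Btc lie close together on chromosome 5, in 376 kb from the start of Epgn to the end of Btc (GRCm38, GENCODE vM21). Areg occupies positions 91139599 to 91148432 on the plus strand, Ereg 91074622 to 91093646, Epgn 91027464 to 91035215, and Btc 91357261 to 91402994 on the minus strand. Tgfa lies on chromosome 6 (86195223 to 86275719), Nrg1 on chromosome 8 (31814551 to 32884029), Erbb3 on chromosome 10 (128567523 to 128589652), Egfr on chromosome 11 (16752203 to 16918158) and Erbb2 on chromosome 11 (98412470 to 98437716). All 10 are annotated as protein-coding.

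The sequences before the starts of Areg and Tgfa, ligands that rose in keratinocytes after imiquimod, and of Egfr, which fell in basal keratinocytes, are shown because their levels passed the test in a keratinocyte sum, Tgfa over all keratinocytes, Egfr in basal cells and Areg in both. Ereg and Nrg1 passed in these sums too but had no sequence among those searched. Epgn, which passed in suprabasal cells only, had a sequence that is not shown. Each sequence shown holds the 250 bases before the RefSeq start (GRCm38.p6, plus strand, 5′ to 3′), with matches to 5 searched motifs in capitals.
Areg, chr5:91139349-91139598: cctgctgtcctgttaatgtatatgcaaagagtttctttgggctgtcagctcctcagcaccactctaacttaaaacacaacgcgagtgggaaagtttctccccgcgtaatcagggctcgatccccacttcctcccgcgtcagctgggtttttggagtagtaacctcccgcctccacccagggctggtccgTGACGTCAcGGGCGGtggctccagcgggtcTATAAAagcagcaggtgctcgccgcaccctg
Tgfa, chr6:86194972-86195221: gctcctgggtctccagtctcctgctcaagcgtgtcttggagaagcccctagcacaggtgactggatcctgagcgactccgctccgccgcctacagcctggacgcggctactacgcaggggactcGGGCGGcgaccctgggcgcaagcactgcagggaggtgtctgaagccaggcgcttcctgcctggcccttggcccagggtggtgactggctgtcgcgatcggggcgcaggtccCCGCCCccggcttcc
Egfr, chr11:16751953-16752202: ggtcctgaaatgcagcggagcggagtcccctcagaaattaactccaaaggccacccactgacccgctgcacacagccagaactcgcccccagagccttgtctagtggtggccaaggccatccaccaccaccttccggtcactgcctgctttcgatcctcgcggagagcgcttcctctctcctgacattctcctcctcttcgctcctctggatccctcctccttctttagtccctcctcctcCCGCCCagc
The motifs, searched on both strands, included TGANTCA, the AP-1 site. The cAMP response element was searched as TGACGTCA. The TATA box was TATAAA and the GC box was GGGCGG. The CCAAT box was searched by its name, and no match overlapped another. Areg held a cAMP response element that begins 61 bases before the start, a GC box that follows at 52 bases and a TATA box at 31 bases. Tgfa held a pair of GC boxes, at 126 and 15 bases before the start. The single match in Egfr was a GC box at 9 bases. Of the 32851 RefSeq windows of this length, 1.55% held TGACGTCA, 12.4% held TATAAA and 32.7% held GGGCGG. AP-1 sites, present in 6.75% of all windows, were not matched in these 3.

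The files held 55201 barcodes, of which 50850 passed the limits on UMIs, genes and mitochondrial share, with 51968672 to 170319616 UMIs per library. Cells were placed into 10 classes by the mean level of marker genes, none of them a member, and 94.3% were placed. The keratinocyte markers together made 37807 to 44948 CPM (UMIs of a gene or list per 1000000 UMIs of the class in a library) in the keratinocytes of the 6 libraries and at most 1505 in fibroblasts, endothelial cells, myeloid cells and lymphocytes. The 2 libraries with the most keratinocytes, Sham replicate 1 (6217 cells) and IMQ+SHP099 replicate 1 (5511 cells), also had the most keratinocyte marker UMIs in lymphocytes (868 and 1505 CPM) against 257 to 457 in the other 4. Between 14 and 43 barcodes were shared by any pair of libraries. Keratinocytes were deeper after imiquimod, with a median of 9929 and 15173 UMIs per cell in Sham, 34731 and 31610 with IMQ, and 25751 and 21837 with IMQ+SHP099. Shares of cells with a UMI are therefore given after thinning each cell with at least 2000 UMIs to 2000. Shallower cells were left out of the thinned shares, while unthinned shares cover all cells of a class. The median was 2475.5 UMIs per cell in lymphocytes and 2664.5 in Schwann cells, so the 2 kinds of share rest on different cells there.

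Keratinocytes had the highest thinned share of positive cells, taken as the median over libraries, for 9 of the 10 members among keratinocytes, fibroblasts, endothelial, mural and myeloid cells and lymphocytes, and Egfr was the exception, with its highest share in fibroblasts. Schwann cells, with 10 to 349 cells per library, were left out of this ranking. In Sham the ranking did not hold for Areg: its share in lymphocytes was at least 13.2% in every library, and Sham keratinocytes were below that. Orders of levels below cover these classes and Schwann cells, and leave out melanocytes, skeletal muscle and mast or basophil cells, of which most libraries had under 20. The level of a member in CPM was compared within libraries between 4 pairs of classes in 40 tests, and 30 passed (exact two-sided sign-flip permutation test over 6 libraries, adjusted p = 0.0417, which is what the smallest possible p of 0.03125 gave after Benjamini-Hochberg adjustment). Against fibroblasts, 8 members were higher in keratinocytes and Egfr was lower. Btc, higher in 5 of 6 libraries, did not pass (adjusted p = 0.0781). Levels of different genes are not compared, since capture differs by transcript.

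**Figure D1:**
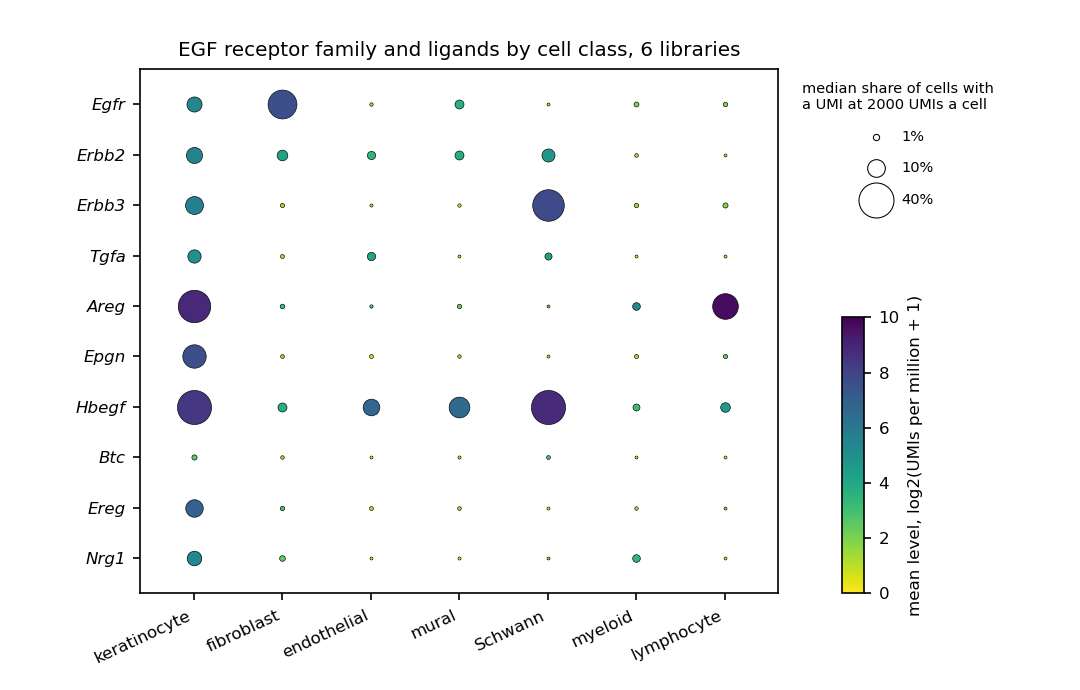
Level and detection of the 10 members in 7 cell classes. Colour gives the mean over 6 libraries as log2(CPM + 1) and dot size the median share of cells with a UMI at 2000 UMIs per cell. Most ligands are dark and large in keratinocytes, Egfr in fibroblasts, Erbb3 in Schwann cells and Areg also in lymphocytes.

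Egfr, the receptor of all EGF-type ligands, was highest in fibroblasts. Its level in fibroblasts was 170 and 107 CPM in Sham, 205 and 222 with IMQ, and 188.4 and 254 with IMQ+SHP099. In keratinocytes it was 47.3 and 77.6 in Sham, 26.5 and 31.9 with IMQ, and 27.7 and 40.2 with IMQ+SHP099. Fibroblasts were above keratinocytes in 6 of 6 libraries, by a log2 difference of 2.22 ± 0.94 (SD, n = 6, exact sign-flip permutation test, adjusted p = 0.0417), and the ranges did not overlap. Mural cells, the contractile cells around vessels, followed with 7.83 to 14 CPM. Myeloid cells, lymphocytes, endothelial cells and Schwann cells lay between 0 and 5.88 with overlapping ranges. The thinned share of Egfr-positive cells was 16.2% to 35.0% in fibroblasts and 5.21% to 14.8% in keratinocytes, against at most 0.900% in lymphocytes, the background class. Unthinned, these shares were 41.7% to 64.3%, 39.3% to 63.9% and 0% to 1.39%, at median depths of 7607, 18772 and 2475.5 UMIs per cell. Fibroblasts, at 1162 to 6267 cells per library, held 22.0% of all Egfr UMIs in Sham replicate 1 and 91.9% in IMQ+SHP099 replicate 2.

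After imiquimod, Egfr fell in basal keratinocytes, the dividing layer. The basal level was 49.3 and 87.7 CPM in Sham, 23.7 and 30.6 with IMQ, and 26.8 and 40.5 with IMQ+SHP099. Both Sham libraries lay above all 4 others. IMQ against Sham gave a log2 fold change of -1.13 (SE 0.26, edgeR quasi-likelihood test, adjusted p = 0.0196). Without IMQ replicate 1 the adjusted p was 0.236 at a log2 fold change of -1.004, and without IMQ replicate 2 it was 0.103 at -1.26. Over all keratinocytes the value was -0.77 (SE 0.24, adjusted p = 0.0672) and in fibroblasts 0.65 (SE 0.37, adjusted p = 0.579), neither passing. The difference between these effects, -1.46 (SE 0.41), did not pass either (adjusted p = 0.0629). It rested on the Sham libraries: without Sham replicate 1 it was -2.196 and passed (adjusted p = 0.00204), and without Sham replicate 2 it was -0.81 (adjusted p = 0.111), while the fibroblast value ran from 0.21 to 1.30 without one or the other. It also passed without the filter on low counts (adjusted p = 0.00136) and with thinned cells (adjusted p = 0.0377).

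Erbb2, the co-receptor, was highest in keratinocytes. It stood at 43.8 and 76.6 CPM in Sham, 40.3 and 41.4 with IMQ, and 28.2 and 43.3 with IMQ+SHP099. Both Sham libraries lay above every treated library, the lower one narrowly (43.8 against 43.3), while IMQ and IMQ+SHP099 overlapped. IMQ against Sham gave -0.22 (SE 0.24, edgeR quasi-likelihood test, adjusted p = 0.572) and did not pass. Suprabasal keratinocytes, the differentiating layers, were above basal ones in 6 of 6 libraries, with a mean of 64.6 against 29.8 CPM (log2 difference 1.06 ± 0.28, SD, exact sign-flip permutation test, adjusted p = 0.0417). Schwann cells (0 to 45.6), fibroblasts (12.4 to 24.6), mural cells (7.46 to 16.7) and endothelial cells (5.39 to 19.8) followed with overlapping ranges. The thinned share was 5.96% to 14.1% in keratinocytes and at most 0.163% in lymphocytes (37.2% to 65.7% and 0% to 0.251% unthinned).

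Erbb3, the neuregulin receptor, was highest in Schwann cells among the 7 classes compared. Schwann cells are the glia of skin nerves and depend on neuregulin. In them it was 145 and 273 CPM in Sham, 268 and 210 with IMQ, and 83.5 and 293 with IMQ+SHP099, where the value of 83.5 rests on 10 cells. Keratinocytes came next, with 57.3 and 72.5 in Sham, 48.6 and 50.9 with IMQ, and 39.2 and 53.4 with IMQ+SHP099. Schwann cells were above keratinocytes in 6 of 6 libraries and the ranges did not overlap, although this pair was not among the tests. Melanocytes, with 2 to 17 cells per library and 23 Erbb3 UMIs in all, were at 0 to 297 CPM and could not be placed in the order. Fibroblasts, at 1.31 to 2.15, lay in the range of myeloid cells, and their difference of -0.11 ± 0.32 on the log2 scale did not pass (adjusted p = 0.473). In suprabasal cells Erbb3 was above the basal level in 6 of 6 libraries (mean 62.8 against 45.3, log2 difference 0.43 ± 0.42, adjusted p = 0.0417). The thinned share was 21.6% to 39.8% in Schwann cells of the 5 libraries with 20 or more of them, 7.84% to 13.8% in keratinocytes and at most 0.731% in lymphocytes, and unthinned it was 30% to 48.5%, 42.9% to 69.6% and 0.226% to 1.66%.

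**Figure D2:**
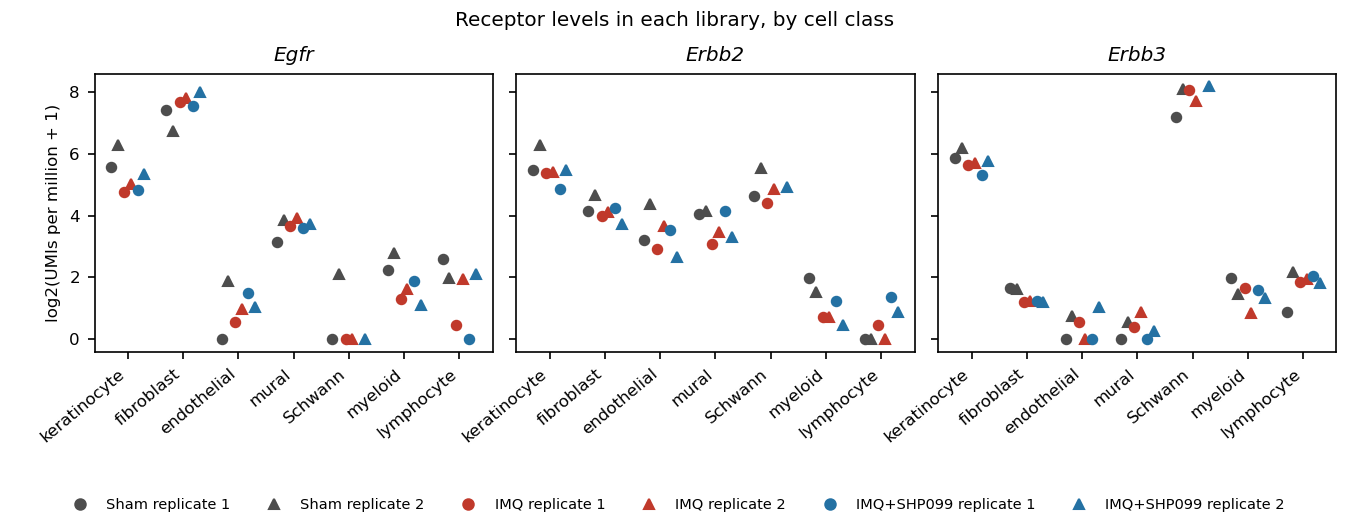
Levels of Egfr, Erbb2 and Erbb3 in each library by cell class, as log2(CPM + 1). Colours mark the groups and shapes the replicates, and a class with under 20 cells in a library is not drawn. Among the 7 classes, Egfr is highest in fibroblasts and Erbb2 in keratinocytes in every library. Erbb3 is highest in Schwann cells wherever these are drawn, which leaves out IMQ+SHP099 replicate 1 with 10 of them.

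Of the ligands, Areg and Ereg rose most in keratinocytes after imiquimod. Areg, amphiregulin, was at 44.1 and 46.6 CPM in Sham keratinocytes, 637 and 398 with IMQ, and 1106 and 627 with IMQ+SHP099. Every treated library lay above both Sham libraries. The log2 fold change of IMQ against Sham was 3.80 (SE 0.51, edgeR, adjusted p = 0.00363). Ereg, epiregulin, was at 14.9 and 9.52 in Sham, 255 and 160 with IMQ, and 70.3 and 214 with IMQ+SHP099, a log2 fold change of 4.31 (SE 0.59, adjusted p = 0.00384) for IMQ against Sham, again without overlap. Each kept an adjusted p under 0.05 in all 15 alternatives run. The thinned share of Areg-positive keratinocytes was 4.12% and 5.15% in Sham, 44.2% and 27.9% with IMQ, and 58.6% and 40.8% with IMQ+SHP099, while in endothelial cells, the background class, it ran from 0% to 6.09%. Ereg-positive keratinocytes made up 1.04% and 0.817% in Sham, 21.7% and 11.2% with IMQ, and 8.40% and 14.9% with IMQ+SHP099, against at most 0.786% in endothelial cells. Unthinned, 13.7% of Sham replicate 1 keratinocytes (exact Clopper-Pearson 95% interval 12.9 to 14.6) and 74.8% of those of IMQ replicate 1 (72.4 to 77.2) held an Areg UMI, and the range in endothelial cells was 0% to 10.5% at a median of 4484 UMIs per cell. For Ereg the unthinned range was 3.04% to 39.95% in keratinocytes and 0% to 1.30% in endothelial cells. Such intervals cover counting error only.

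Both ligands rose in the basal and in the suprabasal layer. Basal Areg was 30.7 and 13.1 CPM in Sham, 499 and 171 with IMQ, and 994 and 589 with IMQ+SHP099 (IMQ against Sham 3.99, SE 0.74, adjusted p = 0.00786). Suprabasal Areg was 72.9 and 69.7 in Sham, 1029 and 847 with IMQ, and 1542 and 988 with IMQ+SHP099 (4.08, SE 0.46, adjusted p = 0.000419). Ereg was a suprabasal ligand: its basal level of 0.516 and 0.572 in Sham rose to 81.7 and 18.6 in IMQ (6.66, SE 0.74, adjusted p = 0.000729), and its suprabasal level of 47.2 and 22.8 rose to 519 and 415 (4.04, SE 0.67, adjusted p = 0.00313). The basal Ereg values in Sham rest on 27 and 8 UMIs. In IMQ+SHP099 suprabasal Ereg stood at 154 and 651. Areg and Ereg were above the basal level in suprabasal cells in 6 of 6 libraries, by 1.38 ± 0.75 and 3.603 ± 1.14 on the log2 scale (SD, exact sign-flip permutation tests, adjusted p = 0.0417 each). The suprabasal sum was added to the tests after its levels had been seen. Cells gated as suprabasal carried more of the basal marker list after imiquimod, 11885 to 16571 CPM in the 4 treated libraries against 2564 and 1515 in Sham, and less of their own list, 24204 to 31805 against 52899 and 45530. The part of this shift in the suprabasal results, those of Erbb2 and Erbb3 included, was not tested.

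**Figure D3:**
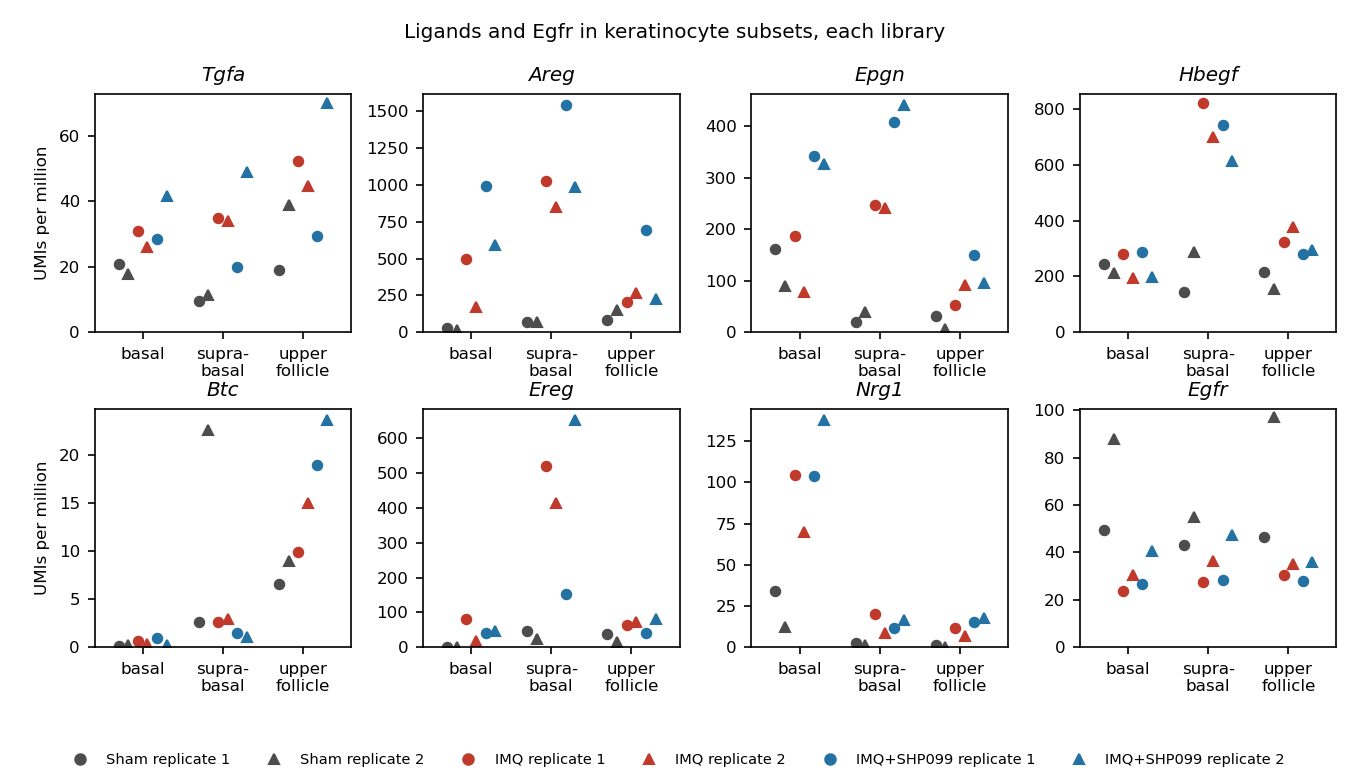
CPM of the 7 ligands and Egfr in basal, suprabasal and upper follicle keratinocytes, 1 point per library, with colours for groups and shapes for replicates. Areg, Epgn, Hbegf and Ereg are high in suprabasal cells of the 4 treated libraries, Nrg1 in basal cells, and the single high Btc point in suprabasal cells is Sham replicate 2.

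Epgn, epigen, and Hbegf, heparin-binding EGF, rose in suprabasal keratinocytes, with no passing change in the basal layer. Suprabasal Epgn was 19.3 and 40.1 CPM in Sham, 246 and 241 with IMQ, and 409 and 441 with IMQ+SHP099, and IMQ against Sham gave 3.47 (SE 0.37, edgeR, adjusted p = 0.00034). Basal Epgn was 161 and 90.3 in Sham, 187 and 78.1 with IMQ, and 341 and 327 with IMQ+SHP099, with overlapping Sham and IMQ libraries (0.17, SE 0.52, adjusted p = 0.850). In Sham the basal level was thus the higher in both libraries, and in the 4 treated libraries the suprabasal level was. Across all 6 libraries the layers did not pass the test (adjusted p = 0.789). Over all keratinocytes Epgn was 110 and 56.5 in Sham, 194 and 131 with IMQ, and 340 and 328 with IMQ+SHP099 (IMQ against Sham 1.17, SE 0.48, adjusted p = 0.146). Without Sham replicate 1 that value was 2.09 and passed (adjusted p = 0.0254), and without Sham replicate 2 it was 0.61 (adjusted p = 0.282). Epgn was almost confined to keratinocytes, which held 95.6% to 98.5% of its UMIs in each library, and its thinned share was 7.89% to 38.1% there and at most 0.691% in lymphocytes (25% to 79.0% and 0.277% to 1.754% unthinned).

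Hbegf in suprabasal cells was 146 and 287 CPM in Sham, 821 and 698 with IMQ, and 743 and 612 with IMQ+SHP099, with no overlap between Sham and the treated libraries (2.24, SE 0.39, adjusted p = 0.00409). Without IMQ replicate 1 the adjusted p was 0.0511. Basal Hbegf, at 195 to 286 in the 6 libraries, gave 0.18 (SE 0.39, adjusted p = 0.782). Over all keratinocytes it was 214 and 224 in Sham, 488 and 395 with IMQ, and 394 and 307 with IMQ+SHP099, and 1.30 (SE 0.36) fell short of the threshold (adjusted p = 0.0515), which 6 of 15 alternatives passed. The thinned share of Hbegf-positive keratinocytes was 25.99% and 24.7% in Sham, 47.7% and 38.0% with IMQ, and 44.7% and 37.8% with IMQ+SHP099, against 0.252% to 4.91% in lymphocytes (56.6% to 88.2% and 0.532% to 8.36% unthinned).

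Tgfa, transforming growth factor alpha, rose in keratinocytes by a smaller amount. Its level was 17.2 and 16.3 CPM in Sham, 35.7 and 31.97 with IMQ, and 26.2 and 54.4 with IMQ+SHP099. No treated library reached down to the Sham level, and IMQ against Sham gave 1.28 (SE 0.32, edgeR, adjusted p = 0.0388). This call was lost without Sham replicate 2 (1.01, adjusted p = 0.119), without IMQ replicate 1 (1.15, adjusted p = 0.241) and without IMQ replicate 2 (1.42, adjusted p = 0.105). The rise was 2.09 (SE 0.34, adjusted p = 0.003) in suprabasal cells, from 9.50 and 11.5 to 34.9 and 34.0, and 0.68 (SE 0.31, adjusted p = 0.155) in basal cells. Upper follicle keratinocytes were at 19.2 and 39.0 in Sham and 52.4 and 44.6 in IMQ. The thinned share in keratinocytes was 3.27% to 9.79%, and at most 0.111% in lymphocytes (16.5% to 53.2% and 0% to 0.532% unthinned).

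Nrg1, neuregulin 1 and the member that binds ERBB3, was the basal ligand. Basal keratinocytes held 34.1 and 12.5 CPM in Sham, 104 and 69.9 with IMQ, and 104 and 138 with IMQ+SHP099. All 4 treated libraries were above both Sham libraries (1.93, SE 0.54, edgeR, adjusted p = 0.0381). The call was lost without IMQ replicate 1 (1.54, adjusted p = 0.164), without IMQ+SHP099 replicate 1 (1.92, adjusted p = 0.0977) and without IMQ+SHP099 replicate 2 (1.93, adjusted p = 0.0941). Suprabasal cells held 1.31 to 20.4, below basal cells in 6 of 6 libraries (log2 difference 2.81 ± 0.33, SD, adjusted p = 0.0417), and rose from 2.86 and 1.31 to 20.4 and 8.60 (3.07, SE 0.53, adjusted p = 0.00409), beside the rise in basal markers in these cells given above. Over all keratinocytes, at 23.1 and 6.39 in Sham and 51.6 and 33.9 in IMQ, the value was 1.68 (SE 0.63, adjusted p = 0.117), with 3.32 (adjusted p = 0.0077) without Sham replicate 1 and 0.94 (adjusted p = 0.116) without Sham replicate 2. The thinned share of Nrg1-positive keratinocytes was 1.1995% to 10.8%, and 2 UMIs were found in all lymphocytes (thinned share at most 0.107%, and 6.64% to 46.2% against 0% to 0.226% unthinned).

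Btc, betacellulin, had 1397 UMIs in all kept cells. Its level in keratinocytes was 1.03 and 8.66 CPM in Sham, 2.74 and 4.82 with IMQ, and 3.09 and 6.71 with IMQ+SHP099. Of the 274 keratinocyte UMIs in Sham replicate 2, 223 came from 1 cell, and without that cell the level there was 1.61. Upper follicle keratinocytes held Btc at 6.63 and 8.97 in Sham, 9.90 and 15.0 with IMQ, and 18.9 and 23.6 with IMQ+SHP099, lowest in Sham and highest in IMQ+SHP099 without overlap, in a subset that was not tested. Suprabasal cells held 22.6 CPM in Sham replicate 2, of which 1.78 remained without that cell, and 1.12 to 2.94 in the other libraries. In fibroblasts Btc was 1.72 and 4.61 in Sham, 0.0874 and 0.223 with IMQ, and 0.712 and 0.349 with IMQ+SHP099. These are 12 and 163 UMIs in Sham against 3 and 14 in IMQ, and the log2 fold change of -4.14 (SE 0.72) missed the threshold (adjusted p = 0.0601). Without Sham replicate 1 it was -4.48 and passed (adjusted p = 0.0386). No Btc UMI was found in endothelial cells or lymphocytes, where 3 counts would have been 1.01 to 8.36 CPM.

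Lymphocytes were the other main source of Areg. Their level was 2168 and 626 CPM in Sham, 505 and 628 with IMQ, and 513 and 547 with IMQ+SHP099, so Sham replicate 1 stood apart and the other 5 libraries overlapped. In Sham, lymphocytes held 38.2% and 35.9% of all Areg UMIs and keratinocytes 54.9% and 49.7%. In the treated libraries lymphocytes held 0.195% to 8.91% and keratinocytes 86.2% to 97.9%. The lymphocyte change of -1.204 (SE 0.55) for IMQ against Sham did not pass (edgeR, adjusted p = 0.388). Without Sham replicate 1 it was 0.10 (adjusted p = 0.909), and without Sham replicate 2 it was -1.89 (adjusted p = 0.0316). Epidermal gamma-delta T cells, the resident T cells of mouse epidermis, were at 2454 and 999 in Sham, 268 and 520 with IMQ, and 512 and 450 with IMQ+SHP099, with both Sham libraries above the rest. Type 17 T cells, rare in Sham with 4 and 39 cells, held 585 and 1116 in IMQ (166 and 49 cells). Over the 4 libraries with 20 or more of these cells, which include Sham replicate 2 and IMQ+SHP099 replicate 2, the range was 95.5 to 1116. Thinned, 13.2% to 43.0% of lymphocytes were Areg-positive (17.03% to 41.3% unthinned), and the 5 most positive cells of a library held 31.1% to 66.7% of its lymphocyte Areg UMIs. Keratinocyte markers in lymphocytes were highest in IMQ+SHP099 replicate 1, at 1505 CPM, where Areg was 513, and next in Sham replicate 1, at 868, where Areg was 2168, against 257 to 457 in the other 4 libraries. Their part in the Areg values was not tested.

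Hbegf and Tgfa had further sources outside the epidermis. Schwann cells held Hbegf at 868 and 420 CPM in Sham, 399 and 389 with IMQ, and 209 and 390 with IMQ+SHP099, of which the first rests on 20 cells and the value of 209 on 10. They were above keratinocytes in 3 of 6 libraries, so the order of these classes was not settled. Endothelial cells held 114 and 155 in Sham, 133 and 137 with IMQ, and 46.5 and 48.5 with IMQ+SHP099. Mural cells lay at 78.9 to 149, overlapping with endothelial cells. Blood endothelial cells were at 190 to 364 in Sham and IMQ and at 129 and 80.2 in IMQ+SHP099, the last from 18 and 36 cells, and lymphatic endothelial cells at 8.19 to 58.8. The thinned share of Hbegf-positive cells was 34.5% to 46.4% in Schwann cells of the 5 libraries with 20 or more, 12.004% to 20.8% in mural cells and 4.54% to 15.6% in endothelial cells (25% to 44.99%, 30.1% to 45.5% and 4.76% to 26.03% unthinned). Tgfa in endothelial cells, 11.2 to 31.3, was above the fibroblast level of 0.572 to 2.29 in 6 of 6 libraries without overlap. Nrg1 in myeloid cells was 4.44 and 3.09 in Sham, 10.3 and 7.39 with IMQ, and 16.6 and 18.4 with IMQ+SHP099, in order of group without overlap. However, IMQ against Sham (1.4997, SE 0.44) and IMQ+SHP099 against IMQ (0.99, SE 0.39) did not pass (edgeR, adjusted p = 0.336 and 1). Its mean was 25.1 in monocytes and 1.38 in Langerhans cells, and monocytes made up 10.8% to 63.4% of the myeloid cells of a library. The part of this mix in the order of groups was not tested.

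**Figure D4:**
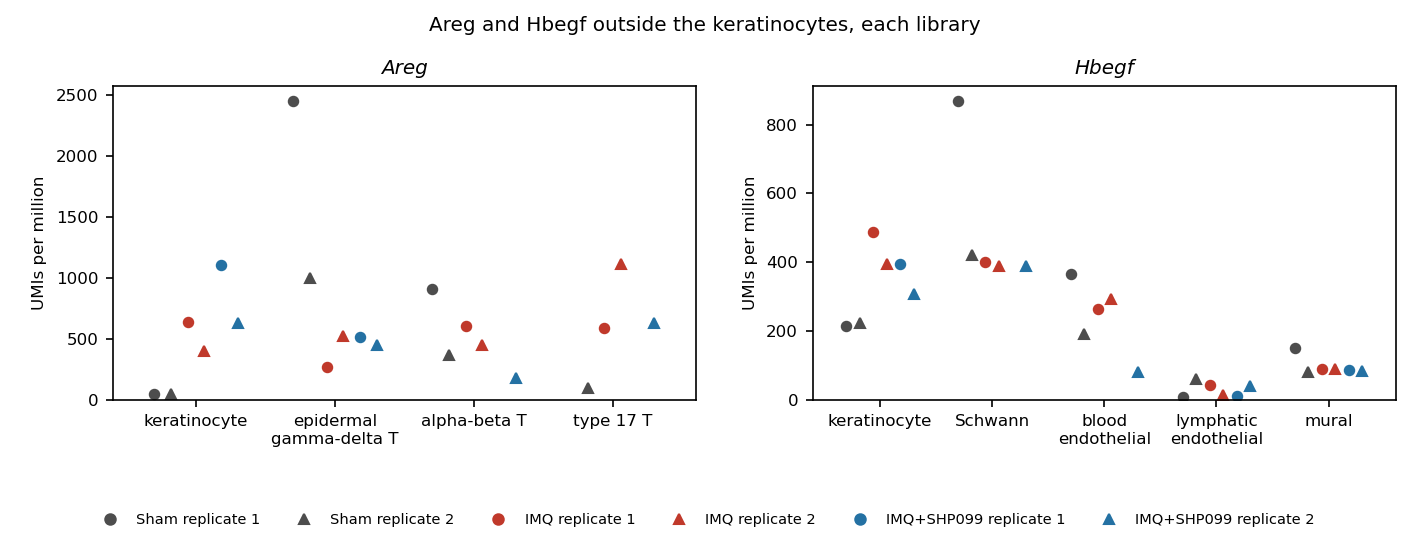
CPM of Areg in keratinocytes and 3 T cell subsets (left) and of Hbegf in keratinocytes, Schwann cells, vessel classes and mural cells (right), 1 point per library with 20 or more cells. Areg in epidermal gamma-delta T cells is highest in the Sham libraries, opposite to keratinocytes, and Hbegf in blood endothelial cells is lowest in the drawn IMQ+SHP099 library.

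Counted over 7 sums (all cells, keratinocytes, basal keratinocytes, fibroblasts, endothelial cells, myeloid cells and lymphocytes), 48 of 70 combinations of member and sum were abundant enough to test, and the other 22 were not tested. For IMQ against Sham 7 passed, 6 higher and 1 lower (edgeR quasi-likelihood test, Benjamini-Hochberg adjusted p under 0.05 over all genes of a sum). The sums overlap, since basal keratinocytes are part of keratinocytes and each class is part of all cells. Areg and Ereg are therefore counted in both keratinocyte sums, beside Tgfa in keratinocytes and Egfr and Nrg1 in basal keratinocytes. In keratinocytes 3 of 10 members passed, against 13.2% of all genes, and all 3 were higher, against 5.42% of genes called higher. In basal keratinocytes 4 of 9 passed (18.3% of genes), 3 of them higher (8.16%). In suprabasal keratinocytes, outside the 7 sums, 6 of 10 passed (15.6%), all higher (7.8%). The median log2 fold change of the tested members was 1.22, 0.18 and 2.16 in these sums, and that of all genes -0.09, -0.09 and -0.04.

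No member passed in fibroblasts (0.676% of genes called), endothelial cells (0.202%), lymphocytes (0.0114%), myeloid cells (0%) or all cells together (0%). In the last 2 sums no gene passed, while 1159 and 1266 genes had an unadjusted p under 0.05 and DESeq2 called 266 and 581. Among members an unadjusted p under 0.05 was seen for 2 in fibroblasts and 1 each in lymphocytes, myeloid cells and all cells, and DESeq2 called Ereg in all cells and Btc in fibroblasts. Ereg in all cells was 13.1 and 4.30 CPM in Sham, 117 and 38.0 with IMQ, and 64.1 and 45.7 with IMQ+SHP099. Its change of 3.01 (SE 0.99, edgeR, adjusted p = 0.576) passed with the replicate number as a block (3.15, SE 0.41, edgeR, adjusted p = 0.013). The labels give that number no meaning. Deviations of same-numbered libraries correlated at 0.361 to 0.562 in this sum. Keratinocytes made up 72.4% and 22.5% of the cells in Sham and 17.2% and 7.92% in IMQ.

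The effect of imiquimod differed between keratinocytes and fibroblasts for 4 members, against 9.11% of all 15946 genes (edgeR interaction test with the library as a block). The difference was 2.82 for Tgfa (SE 0.40, adjusted p = 0.0086), 4.78 for Areg (SE 0.83, adjusted p = 0.0159), 4.55 for Btc (SE 0.78, adjusted p = 0.0149) and 2.78 for Nrg1 (SE 0.47, adjusted p = 0.0142). Without IMQ replicate 1 none of the 4 passed, with adjusted p between 0.0542 and 0.0964 and differences of 2.53 to 5.15. Fibroblast Areg, at 14.3 and 2.77 CPM in Sham, 5.24 and 1.73 with IMQ, and 17.5 and 2.48 with IMQ+SHP099, was highest in the 2 libraries whose fibroblasts also had the most keratinocyte marker UMIs (1058 and 643 CPM against 141 to 390), and the part of that in the Areg value was not tested. In Sham replicate 1, 54 of the 100 fibroblast Areg UMIs came from 1 cell. Fibroblast Tgfa and Nrg1 were low throughout, at 0.572 to 2.29 and 2.23 to 7.74.

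With SHP099 added to imiquimod, no member passed in any of the 48 combinations (edgeR). At an unadjusted p under 0.05 there were 5, and DESeq2 called none. Across all genes 1 passed in basal keratinocytes (0.00772%) and 1 in suprabasal keratinocytes (0.00839%), and none (0%) in keratinocytes, fibroblasts, endothelial cells, myeloid cells, lymphocytes or all cells. In the 8 sums 52 to 491 genes had an unadjusted p under 0.05, and DESeq2 called 0 to 24. For the keratinocyte ligands the log2 fold change was 0.90 for Areg (SE 0.46), -0.52 for Ereg (SE 0.52), 0.31 for Tgfa (SE 0.32), -0.19 for Hbegf (SE 0.36) and 0.75 for Nrg1 (SE 0.62), each with adjusted p = 1. Epgn was above both IMQ libraries in both IMQ+SHP099 libraries (1.16, SE 0.48, edgeR adjusted p = 1). Endothelial Hbegf, given above, was lower in both IMQ+SHP099 libraries than in any other, with -1.497 (SE 0.25, edgeR adjusted p = 0.657), and passed when only the 2 groups were fitted (-1.49, adjusted p = 0.0461). The receptors in keratinocytes moved by -0.11 (Erbb2, SE 0.24) to 0.31 (Egfr, SE 0.24). Both comparisons use the IMQ libraries.

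**Figure D5:**
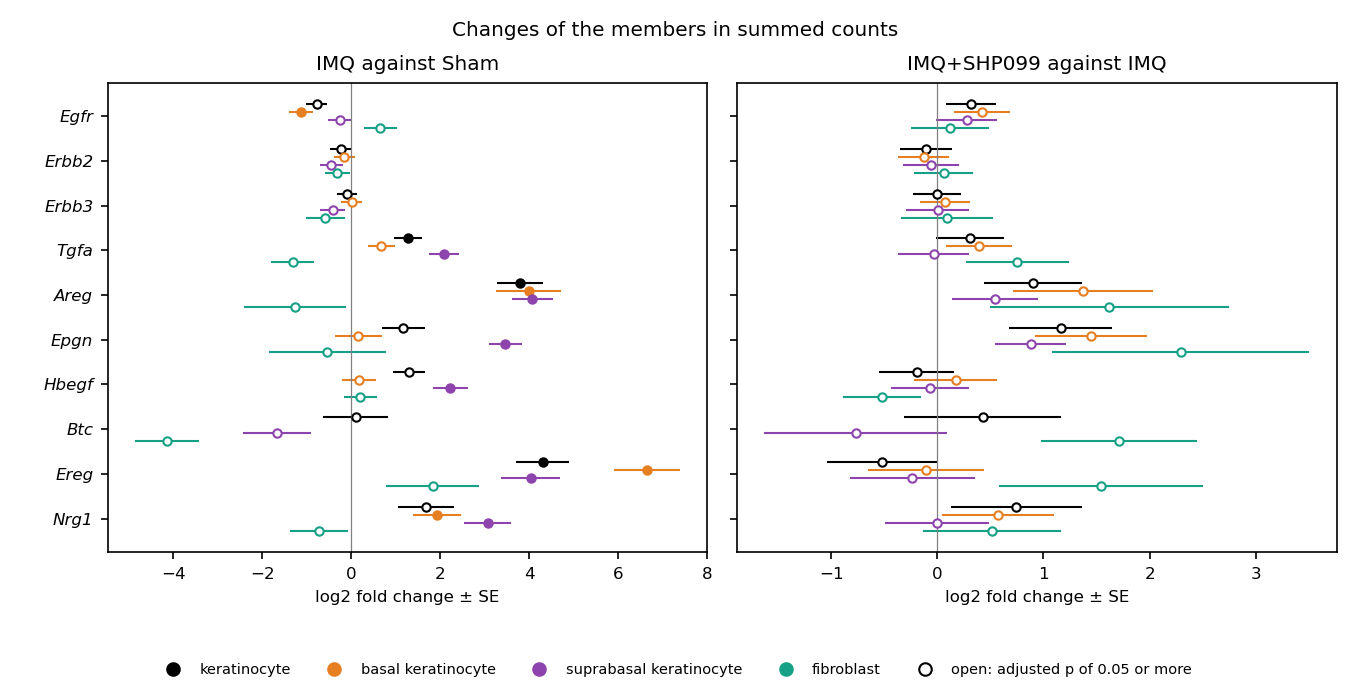
Log2 fold changes (points) with SE (bars) of the 10 members in 4 sums, for IMQ against Sham on the left and IMQ+SHP099 against IMQ on the right. Filled points have an adjusted p under 0.05. Filled points on the left are Areg, Ereg, Tgfa, Epgn, Hbegf and Nrg1 to the right of 0 and Egfr to the left, and there is none on the right.

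Other genes of the pathway were taken from a list of 46. Of 44 tested in keratinocytes, 2 rose and 4 fell for IMQ against Sham, with a list median of -0.28 on the log2 scale. That is 13.6% of the list, near the 13.2% of all genes called, so the count does not set the list apart. The 2 that rose were Map2k1, which encodes the ERK kinase MEK1 (0.93, SE 0.24, edgeR, adjusted p = 0.0401), and Phlda1, an ERK-responsive gene that rose from 163 and 77.2 CPM in Sham to 717 and 502 in IMQ (2.54, SE 0.54, adjusted p = 0.0219). Of the 4 that fell, Cblb, a ubiquitin ligase that marks receptors for decay, went from 41.0 and 44.4 to 13.4 and 13.4 (-1.39, SE 0.24, adjusted p = 0.00959). Lrig1 and Lrig3, membrane proteins related to receptor turnover, changed by -1.196 (SE 0.26, adjusted p = 0.0237) and -1.14 (SE 0.31, adjusted p = 0.0488). Spred2, an inhibitor of the RAS step, changed by -1.62 (SE 0.28, adjusted p = 0.00912), from 24.6 and 48.1 to 8.09 and 10.6.

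In basal cells 3 of 43 rose (Map2k1, Phlda1 and the transcription factor Etv4) and 6 fell (Cblb, Lrig1, Lrig3, Spred2, the feedback inhibitor Spry1 at -2.11 and the immediate early gene Egr1 at -1.27), which is 20.9% of the list against 18.3% of all genes. In suprabasal cells 4 of 42 rose, among them Phlda1 (4.22, SE 0.50) and Ier3 (2.97, SE 0.36), both ERK-responsive, with Dusp6, which switches ERK off, and Map2k1, and 3 fell (Lrig3, Spred2 and Nrg2), or 16.7% of the list against 15.6% of all genes. In suprabasal cells Dusp6 rose by 1.05 (SE 0.26, adjusted p = 0.0219). In fibroblasts Nrg2, another neuregulin, was the 1 gene of 43 to pass, from 5.73 and 9.59 CPM to 1.02 and 1.32 (-2.59, SE 0.41, adjusted p = 0.0474). None of the list passed in endothelial cells, myeloid cells, lymphocytes or all cells by edgeR (7, 3, 7 and 2 at an unadjusted p under 0.05), and none in any sum for IMQ+SHP099 against IMQ (0 to 3 in a sum at an unadjusted p under 0.05), with median log2 fold changes between -0.02 and 0.11. Erbb4, the fourth receptor, had 0 to 8 UMIs in a whole library and Egf itself 33 to 97. The sheddase Adam17 and its relatives in the list did not pass in keratinocytes, with a median of 0.22.

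Over 44 sums of 9 classes by library, the genes most like each member by Pearson's r were found among 10672 genes. The points share libraries and differ in depth, so r is a description. The 3 nearest to Epgn were 2610528J11Rik (r = 0.964), Abca12 (0.962), a lipid carrier of the epidermal barrier, and Defb1 (0.957). Ereg was nearest to Gsdmc (0.889), Slc5a1 (0.889) and Teddm3 (0.887). Areg was nearest to Gstp3 (0.904), Trbc2 (0.892), a T cell receptor gene, and Acpp (0.846), Hbegf to Hadh (0.868), Eva1c (0.825) and Ank3 (0.814), Tgfa to Rassf10 (0.883), Palmd (0.843) and Fam57a (0.826), and Nrg1 to Cstb (0.868), Plet1 (0.850) and Il1rn (0.837), the interleukin 1 receptor antagonist. For the receptors the nearest were Irx1 (0.894), Il1rl2 (0.871) and Has1 (0.869) to Egfr, Efna5 (0.906), Cttn (0.902) and Tcim (0.890) to Erbb2, and Myh14 (0.903), Pou3f1 (0.894) and Tfap2b (0.889) to Erbb3. Pou3f1 encodes a transcription factor of Schwann cells. Btc was nearest to Ptprz1 (0.869), Art4 (0.836) and Sema4g (0.806).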

How the data were processed

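Raw counts of UMIs, 1 value for each gene in each barcode, were deposited by the authors, who made them with Cell Ranger 3.1.0 against GRCm38 and not normalized. Barcodes under 100000 UMIs, 6500 genes and 10% mitochondrial UMIs were kept, with no doublet caller. A cell joined the class with the highest mean log-scaled marker level if that was at least 0.5 and 1.5 times the next; subsets needed 0.25 and 1.25 times. Of 50850 kept cells 2875 stayed unassigned and 1487 lay at 1.25 to 1.75 times. UMIs were summed per library and class and fitted with edgeR 4.0.16 (R 4.3.3; TMM, filterByExpr, 3 groups), after a check on simulated data, and DESeq2 1.42.0 was an alternative. Class levels used log2(CPM + 1). Unthinned shares of cells carry exact Clopper-Pearson 95% intervals, and thinned shares carry none. The intervals were at most 9.40 percentage points wide in keratinocytes, 5.80 in fibroblasts, 11.9 in endothelial cells, 10.7 in myeloid cells, 11.5 in lymphocytes and 53.1 in Schwann cells. Total UMIs per library set the precision of a level, and 0 was read against 3 counts. Deviations of same-numbered libraries correlated at 0.361 to 0.562 in all cells, 0.219 to 0.327 in myeloid cells and 0.159 to 0.400 in lymphocytes. Elsewhere the correlations ran from -0.0806 in endothelial cells to 0.230 in basal keratinocytes, which overlaps the range in myeloid cells and lymphocytes. The labels give the number no meaning. Named genes are the members, passing pathway genes, and the 3 genes most like each member. The members and lists were chosen with earlier results of these data known. Cell Ranger counts reads on the transcript strand. The study's cell labels were not used here.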

Additional observations from a re-analysis of the deposited data

Results flagged for a closer look

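The effect of imiquimod (IMQ against Sham) differed between keratinocytes and fibroblasts for 4 members by a test of the difference itself (edgeR interaction with the library as a block). The effect in keratinocytes exceeded that in fibroblasts by 2.82 for Tgfa (adjusted p = 0.0086), 4.78 for Areg (adjusted p = 0.0159), 4.55 for Btc (adjusted p = 0.0149) and 2.78 for Nrg1 (adjusted p = 0.0142), all on the log2 scale. For Btc, the fibroblast counts behind it were 12 and 163 UMIs in Sham and 3 and 14 in IMQ, and 1 cell gave 223 of the 274 keratinocyte UMIs of Sham replicate 2.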

How the results depend on the processing

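With 2 libraries per group, 1 library can decide a call. The 7 calls of members for IMQ against Sham became 12 with the replicate block, 12 with DESeq2, 15 without a filter on low counts, and 4 to 11 when 1 library was left out (4 without IMQ replicate 1 and 11 without Sham replicate 1). The 0 calls for IMQ+SHP099 against IMQ became 1 with the block (Epgn in basal keratinocytes), 1 with only the 2 groups fitted and 4 without the filter. The 4 members that differed between keratinocytes and fibroblasts became 7 without the filter and 0 to 5 with 1 library left out (0 without IMQ replicate 1). The other alternatives were size factors by RLE, Leiden clusters in place of the gate, a gate margin of 2, a mitochondrial limit of 5% and cells thinned to 2000 UMIs, and they kept these counts within 1.5 times, as did the counts of class differences and of detection. Leaving out a library cannot be used for the class tests, since 5 libraries allow no p below 0.0625. In all cells, myeloid cells and lymphocytes, the replicate block changed no member call other than that of Ereg. The correlations between same-numbered libraries were 0.159 to 0.562 there, and the labels give the number no meaning. In keratinocytes, basal keratinocytes and fibroblasts the correlations were 0.0157 to 0.230, an overlapping range. Of 345 values of 23 results for single members, 311 kept their direction and side of the threshold, 10 lost and 23 gained a call, and 1 turned sign: Areg in lymphocytes ran from -1.89 to 0.10 when 1 library was left out. The cause of these changes was not tested.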
